A study of Mus musculus with 4 samples.

Results

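The endothelial cells of the proximal testis were taken as those cells in which at least 3 of 7 endothelial genes, *Cldn5*, *Ptprb*, *Pecam1*, *Cdh5*, *Emcn*, *Kdr* and *Tek*, had 1 or more UMIs (unique molecular identifiers, each of which marks 1 captured RNA molecule). Among 22567 cells with 1000 to 4500 detected genes, 82 met this rule. They were 8 of 6135 cells and 25 of 5174 cells in the first and second control library, and 15 of 5652 and 34 of 5606 in the first and second *Sox17*-cKO library. Sets of 4 values below keep this order of the libraries. Because the cells were chosen by the UMIs of the 7 genes, their levels and every contrast with the other cells are given as a description, without a test. The label "vascular" held for part of them only. Of the 82 cells, 16 carried lymphatic endothelial markers and 14 carried as many markers of another cell type as endothelial genes, so the set is called endothelial-marker-positive below.

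Endothelial cells line blood and lymphatic vessels. They are held together by VE-cadherin (*Cdh5*), claudin 5 (*Cldn5*) and PECAM1, and they respond to VEGF through *Kdr* and to angiopoietins through *Tek*. Arterial cells use Notch signalling and the gap junction genes *Gja4* and *Gja5*, venous cells use the nuclear receptor *Nr2f2*, and lymphatic cells require *Prox1*. *Sox17*, *Sox18* and *Sox7* form the SOXF group of transcription factors, which are active in vessels, and *Sox17* is best known from arteries. In the testis, *Sox17* is also a gene of the RT epithelium.

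The study asked what the loss of *Sox17* from the RT does to the Sertoli valve and the adjoining tubules. The region with the RT and the neighbouring tubules was dissected at P14 from C57BL/6 pups, and single cells were captured with the 10x Genomics 3′ chemistry. There were 2 control and 2 *Sox17*-cKO libraries, each from the pooled cells of 3 pups, so that pups within a library cannot be separated. The supernatant with interstitial cells was discarded before capture, which bears on how many vessel cells could be counted. The *Sox17*-cKO mice carried SF1Cre and homozygous floxed *Sox17* (SF1Cre:Sox17flox/flox). The sample records give the controls as SF1Cre, whereas the methods give them as Sox17flox/flox without the Cre. The Cre is driven by *Nr5a1* (SF1) sequences, which are active in the somatic lineage of the gonad.

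The retained cells held between 33649565 and 42011650 UMIs per library, but the endothelial-marker-positive cells held only 64998, 186837, 101191 and 238677. Levels are given as CPM, the share of a gene in all UMIs of the cell set on the usual CPM scale, so that 1 UMI was worth 15.4, 5.35, 9.88 and 4.19 CPM. Their median depth was 8646, 6389, 5983 and 6888 UMIs per cell, against 6017, 7879, 5037 and 6416.5 in the other retained cells, and their median share of mitochondrial UMIs lay between 4.27% and 5.50%. The libraries shared from 7 to 9 barcodes per pair among retained cells and 0 among the 82 cells. The replicate number coincided with the Cell Ranger version (6.0.2 or 6.1.2).

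The cells differed in how many of the 7 genes of the rule they showed. All 7 were seen in 27 cells and from 4 to 6 in 43 cells, whereas 12 cells had exactly 3, by library 0, 1, 2 and 9. Just outside the threshold, 28, 114, 34 and 104 retained cells had exactly 2. The most widely detected gene was *Cdh5*, in 78 cells, at 745 ± 64.7 CPM (SD, n = 4 libraries) against a mean of 10.6 CPM in the other retained cells. *Pecam1*, the platelet and endothelial adhesion molecule, was as even, at 728 ± 71.4 CPM in 73 cells against 1.15 CPM. *Kdr*, the main VEGF receptor, was at 561 ± 157 CPM in 67 cells, and its 21.3 CPM in the other cells was the highest outside level of the 7. Among those other cells, the ones marked by rete testis genes had *Kdr* at a mean of 360 CPM (274 to 423 CPM by library). *Tek*, the angiopoietin receptor, was the lowest, at 200 ± 71.9 CPM in 56 cells. *Ptprb*, a phosphatase that acts on TEK and VE-cadherin, was at 1068 ± 455 CPM and was detected in 66 cells.

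Relative to their mean levels, *Cldn5* and *Emcn* varied most between libraries among the rule genes. *Cldn5* (chr16:18776847-18778262, plus strand, GRCm38), a tight junction protein of endothelium, had 159, 352, 94 and 207 UMIs, or 2446, 1884, 929 and 867 CPM. *Emcn* (chr3:137341067-137432185, plus strand), a surface sialomucin of veins and capillaries, had 13, 121, 67 and 222 UMIs, or 200, 648, 662 and 930 CPM. *Cldn5* was thus lower in both *Sox17*-cKO libraries and *Emcn* higher in both, as were *Kdr* (692, 701, 435 and 415 CPM) and *Pecam1* (723, 637, 810 and 742 CPM), respectively, but these genes took part in the choice of cells and their differences are not tested. The log2 ratio of *Cldn5* was -1.22, and 0.11 when barcodes of 500 or more detected genes were taken with no upper limit. By class of cell *Cldn5* and *Emcn* ran in opposite directions, with *Cldn5* highest in arterial-marked cells and *Emcn* highest in cells of no special class.

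The promoters of *Emcn* and *Cldn5*, the rule genes whose levels differed most between genotypes in either direction, are printed below as given by RefSeq (GRCm38.p6), from 250 bases before to 50 bases after the start of the transcript. The capitals mark the letters CAGGAAG, or CTTCCTG on the other strand, a form of the site bound by ETS factors, which many endothelial genes use.
*Emcn* chr3:137340828-137341127 (plus strand): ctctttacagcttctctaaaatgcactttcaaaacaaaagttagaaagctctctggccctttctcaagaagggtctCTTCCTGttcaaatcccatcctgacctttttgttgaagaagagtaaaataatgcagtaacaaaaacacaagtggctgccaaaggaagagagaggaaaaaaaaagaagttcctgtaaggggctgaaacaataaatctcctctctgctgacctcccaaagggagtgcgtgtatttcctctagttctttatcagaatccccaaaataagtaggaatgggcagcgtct
*Cldn5* chr16:18776597-18776896 (plus strand): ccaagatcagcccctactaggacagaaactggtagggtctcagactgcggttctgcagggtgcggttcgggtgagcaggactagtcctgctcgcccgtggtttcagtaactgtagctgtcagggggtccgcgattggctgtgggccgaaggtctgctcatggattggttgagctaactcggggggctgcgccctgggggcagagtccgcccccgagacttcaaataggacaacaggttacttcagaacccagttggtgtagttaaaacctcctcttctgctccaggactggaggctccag
These letters stood 1 time in the *Emcn* window and 0 times in the *Cldn5* window. They occurred in 13.3% of all 32851 promoters of the table, in 1 of 4 promoters of rule genes, in 6 of 14 promoters of further endothelial genes and in 0 of 13 promoters of arterial genes. A match of letters is a description and shows no binding.

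A wider list of 20 endothelial genes that the rule did not use followed the same cells. All 20 had UMIs in the endothelial-marker-positive cells and were higher there than in the other retained cells in each of the 4 libraries. *Ramp2*, the co-receptor for adrenomedullin, was found in 81 of 82 cells, at 1350 ± 112 CPM against 39.9 CPM outside. *Egfl7*, a secreted endothelial matrix protein, was at 1117 ± 178 CPM in 68 cells, and *Flt1*, the VEGF receptor that acts as a decoy, at 579 ± 149 CPM in 51 cells. *Tie1*, the partner of TEK, was at 207 ± 84.3 CPM in 54 cells. Of the 20 genes with the largest ratio of mean level over the other retained cells, *Cldn5* was first at 1088-fold (both levels plus 1 CPM). *Ptprb* stood at 549-fold, *Ctla2a*, a protease inhibitor gene on no list used here, at 440-fold, *Myct1* at 245-fold, *Clec14a* at 207-fold and *Icam2* at 184-fold. Lymphatic genes were among the first 20 as well, with *Ccl21a* at 653-fold and *Mmrn1* at 441-fold.

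Transcription factors of endothelium were also found in these cells. Of 18 such genes, 15 were higher than in the other retained cells in all 4 libraries. *Klf2*, which responds to blood flow, was the highest of those named here at 1109 ± 351 CPM in 63 cells, followed by *Sox18* at 413 ± 82.0 CPM in 60 cells. The ETS factor *Fli1* was at 240 ± 37.4 CPM in 50 cells, and *Erg*, another ETS factor, at 41.8 ± 20.6 CPM with 21 UMIs in 16 cells. *Foxf2* had 0 UMIs.

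Markers of cell types that could be mixed in were counted next. For each of 9 other types, 7 markers were listed, and a cell that showed as many markers of 1 such type as rule genes, or more, was called mixed. There were 1, 2, 2 and 9 mixed cells by library. All 9 of *Sox17*-cKO 2 had exactly 3 rule genes, from 5 to 7 of the 7 stromal markers (*Col1a1*, *Col1a2*, *Col3a1*, *Pdgfra*, *Dcn*, *Lum*, *Dlk1*) and 0 *Cldn5* UMIs. The 7 stromal markers summed to 200, 1718, 158 and 10621 CPM over all endothelial-marker-positive cells of the 4 libraries, and to 145, 270, 137 and 818 CPM without the mixed cells. In the other retained cells they summed to between 4526 and 20374 CPM. Pericyte markers, of the cells that wrap small vessels, summed to 1339, 396, 128 and 230 CPM, or 0, 108, 10.5 and 278 CPM without the mixed cells, and *Rgs5*, the leading one, had 51 of its 113 UMIs in a single mixed cell of control 1.

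Smooth muscle and peritubular myoid markers reached 3 per cell in 1, 5, 2 and 11 cells and summed to 369, 460, 405 and 2836 CPM, or 163, 426, 232 and 1171 CPM without the mixed cells. Germ cell markers reached 3 per cell in 3, 4, 2 and 2 cells and Sertoli cell markers in 1, 2, 0 and 1. Macrophage, Leydig, rete testis and erythroid markers reached 3 per cell in 0 of the 82 cells. *C1qb*, *Adgre1*, *Lyz2*, *Cyp17a1*, *Insl3*, *Krt8*, *Cdh1* and all 7 erythroid markers had 0 UMIs. Germ cell markers summed to between 209 and 296 CPM against between 1779 and 3143 CPM in the other retained cells. *Nr5a1*, whose sequences drive the Cre, had 3, 5, 4 and 26 UMIs, and 11 of the 26 in *Sox17*-cKO 2 were in mixed cells. Outside the mixed cells, 2, 3, 3 and 7 cells had an *Nr5a1* UMI.

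Lymphatic-marked cells were chosen by lymphatic genes, so the levels of those genes in them follow from the choice and are a description. Cells with at least 3 of 7 lymphatic markers (*Prox1*, *Lyve1*, *Pdpn*, *Flt4*, *Ccl21a*, *Mmrn1*, *Reln*) numbered 1 of 8 (12.5%), 6 of 25 (24%), 4 of 15 (26.7%) and 5 of 34 (14.7%), with exact 95% intervals that all overlapped (0.316 to 52.7%, 9.36 to 45.1%, 7.79 to 55.1% and 4.95 to 31.1%). *Prox1*, the factor that sets lymphatic identity, was at 907 CPM in these 16 cells, pooled over libraries. It was at 9.50 CPM or less in each of the other classes. *Lyve1*, a hyaluronan receptor, was at 2396 CPM in lymphatic-marked cells and at 3.17 CPM or less in the other classes. Outside the endothelial-marker-positive set, macrophage-marked cells had *Lyve1* at a mean of 151 CPM. *Ccl21a*, the chemokine that draws dendritic cells into lymphatics, had 586 UMIs, all of them in the 16 cells. These cells kept *Cldn5* (2599 CPM), *Kdr* (777 CPM), *Egfl7* (1665 CPM) and *Sox18* (416 CPM). They were low in genes of blood vessel endothelium, with *Ptprb* at 120 CPM, *Emcn* at 56 CPM, and *Flt1* and *Clec14a* at 9.25 CPM each. *Sox17* had 1 UMI in the 16 cells.

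Arterial-marked cells were those with at least 7 of 14 arterial genes, a limit chosen after the counts per cell had been seen, so that nothing about them is tested. They numbered 4, 4, 1 and 1 by library, 10 in all, 1 of which was also mixed. The other 72 cells showed at most 6 arterial genes. The 9 cells without the mixed one had *Gja4*, an arterial connexin, at 1047 CPM against 25 CPM in the cells of no special class and 416 CPM in lymphatic-marked cells. *Gja4* is 1 of the 14 genes that chose the arterial-marked cells, so its high level there follows from the choice. *Cxcl12*, the chemokine ligand of CXCR4, was at 1992 CPM in the 9 cells against 114 CPM in the cells of no special class. *Cldn5* was at 4187 CPM against 716 CPM, whereas *Emcn* was at 145 CPM against 1213 CPM. The venous regulator *Nr2f2* had 0 UMIs in the 9 cells, and so had all 7 lymphatic markers and all 7 pericyte markers. Cells rich in pericyte or lymphatic markers had been classed as mixed or lymphatic-marked first. The mixed cell left out here, from control 2, showed all 7 pericyte markers. The single arterial-marked cell of *Sox17*-cKO 2 was shallow, with 2808 UMIs and 0 *Cldn5* UMIs, and met the limit with 7 genes. In bulk sums over so few cells, fewer cells of a kind and less RNA per cell cannot be told apart.

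**Figure D1:**
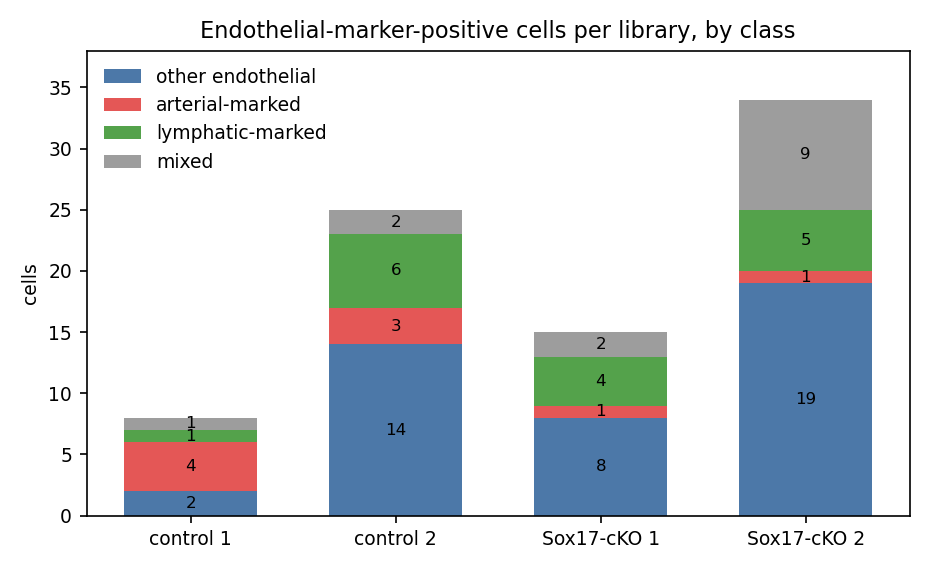
Number of endothelial-marker-positive cells in each library (bars, in cells), split into cells of no special class, arterial-marked, lymphatic-marked and mixed cells. *Sox17*-cKO 2 held 9 of the 14 mixed cells, and the controls held 7 of the 9 arterial-marked cells that were not mixed.

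**Figure D2:**
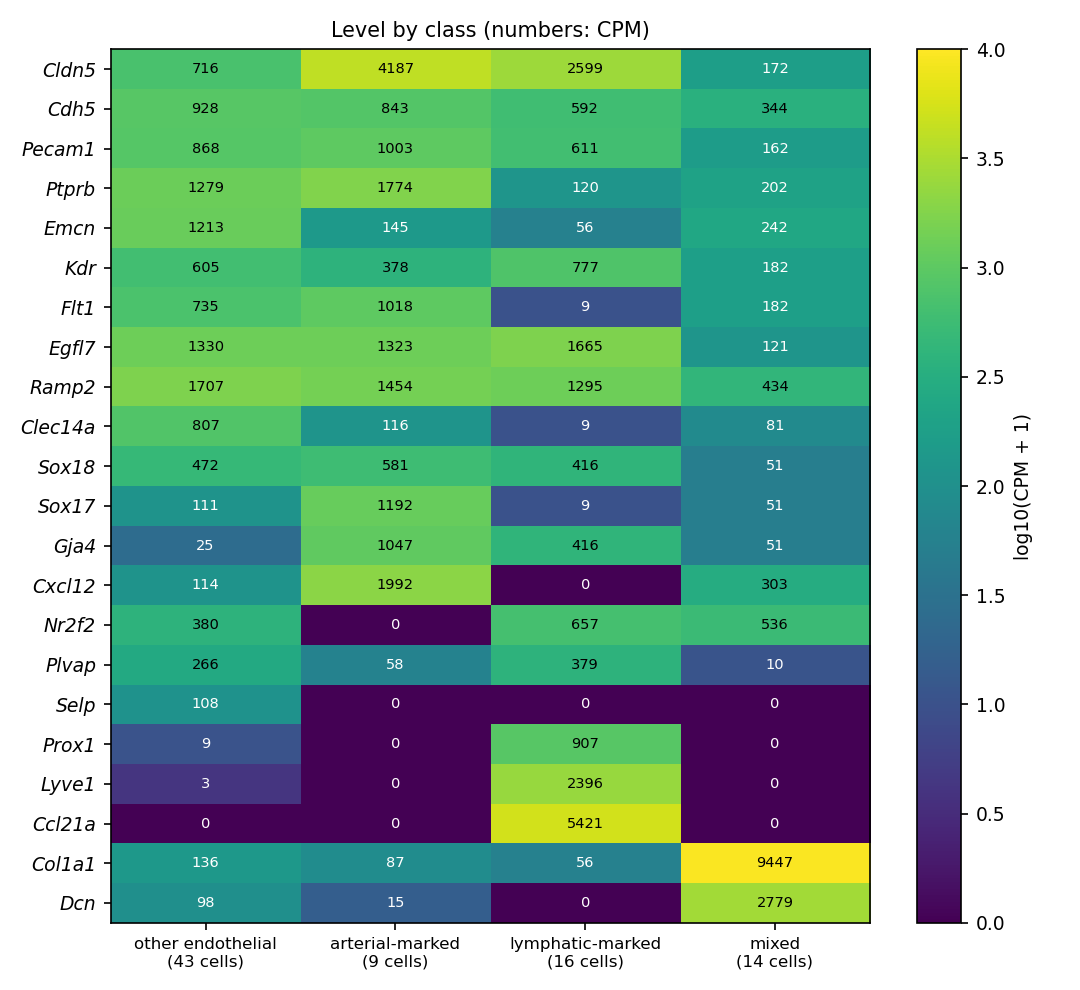
Level of 22 genes in each class, pooled over the 4 libraries, as CPM (numbers) and as log10(CPM + 1) (colour). *Prox1* and *Lyve1* were at 907 and 2396 CPM in lymphatic-marked cells and at 9.50 CPM or less in the other classes, *Sox17* and *Cxcl12* were highest in arterial-marked cells, and *Col1a1* and *Dcn* were highest in mixed cells.

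The remaining 43 cells had 2, 14, 8 and 19 members in the 4 libraries. They carried the highest levels of *Emcn* (1213 CPM), *Clec14a* (807 CPM), *Eng*, the TGF beta co-receptor (852 CPM), and *Ramp2* (1707 CPM). *Selp*, the leukocyte adhesion molecule of venules, had all of its 34 UMIs in them, and *Plvap*, a protein of fenestrated capillaries, was at 266 CPM in them and at 379 CPM in lymphatic-marked cells. Cells with at least 7 of 10 venous genes numbered 0, 2, 4 and 2, and 20 of the 34 *Selp* UMIs came from the 4 of *Sox17*-cKO 1. Of 10 capillary genes, *Cd36* and *Aqp7* had 0 UMIs and *Car4* had 2.

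The share of endothelial-marker-positive cells differed more between replicates than between genotypes. It was 0.130% of retained cells in control 1 (exact 95% interval 0.0563 to 0.257), 0.483% in control 2 (0.313 to 0.712), 0.265% in *Sox17*-cKO 1 (0.149 to 0.437) and 0.606% in *Sox17*-cKO 2 (0.420 to 0.846). These intervals cover counting error only. In both genotypes the second library had the larger share. The mean was 0.307% ± 0.249 in controls and 0.436% ± 0.241 in *Sox17*-cKO (SD, n = 2 each), a difference of 0.129 percentage points with a two-sided exact permutation p of 0.667. The smallest p that 2 libraries against 2 can give is 0.33. The difference was -0.0472 without control 1, 0.306 without control 2, 0.2997 without *Sox17*-cKO 1 and -0.0414 without *Sox17*-cKO 2, each of which leaves the replicate numbers unbalanced. Within each replicate number the *Sox17*-cKO share was the higher one under this rule. Without the mixed cells the second pair stood at 0.445% in control and 0.446% in *Sox17*-cKO, and with at least 4 rule genes at 0.464% and 0.446%. The difference of the means was then 0.0587 and 0.0409 percentage points.

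By in situ hybridization at a later age, the paper reported *Sox17* signals in vessels of the interstitium as conserved in *Sox17*-cKO testes. In its single-cell data it described the decrease as specific to the RT cluster. In the endothelial-marker-positive cells here, *Sox17* (ENSMUSG00000025902, chr1:4490931-4497354, minus strand, GRCm38), the targeted gene, was lower in both *Sox17*-cKO libraries. It had 33, 62, 10 and 18 UMIs, or 508, 332, 98.8 and 75.4 CPM. The controls and the *Sox17*-cKO libraries did not overlap, and 17.9% of all genes tested were lower without overlap in the *Sox17*-cKO libraries. In the other retained cells the log2 fold change of *Sox17*-cKO over control was -2.87 (standard error 0.707). In the endothelial-marker-positive cells it was -2.22 (standard error 0.431). Its unadjusted p of 0.000829 was the smallest among 2807 genes, but the adjusted p was 0.9999 (quasi-likelihood test of edgeR, Benjamini-Hochberg adjustment), so the gene did not pass the threshold of 0.05. Within the first pair of libraries the control level was 5.14 times that of *Sox17*-cKO, and within the second pair 4.40 times. The adjusted p was below the threshold in 2 of 12 alternatives, without *Sox17*-cKO 1 (log2 fold change -2.37, adjusted p = 0.00817 by the same test) and without a filter on low counts (-2.19, adjusted p = 0.0116). Over the 12 alternatives the adjusted p ran from 0.00817 to 0.99995.

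In cells, *Sox17* was detected in 5 of 8 (62.5%), 12 of 25 (48%), 5 of 15 (33.3%) and 10 of 34 (29.4%). With every cell thinned to 3000 UMIs, which left out 0, 0, 4 and 2 shallower cells, the expected shares were 52.5%, 28.3%, 16.4% and 14.5%. Pericyte-marked cells, with median depths from 6149 to 7812 UMIs, showed a *Sox17* UMI in 0 of 380 cells pooled over the 4 libraries of both genotypes. This count allows a share of cells with a UMI of up to 0.789% (an approximate 95% limit that covers counting error only). It does not limit the share that expresses the gene. Germ cell-marked cells had one in between 0.0795% and 0.692% of cells by library, and in control 1 a pair of such cells held 26 of their 52 UMIs. The shares in the endothelial-marker-positive cells were above those of the germ cell-marked cells in each library, the *Sox17*-cKO libraries included. Cells marked by rete testis genes had 304, 267, 40.8 and 32.6 CPM, below the summed endothelial-marker-positive level in all 4 libraries. Their share of cells with a *Sox17* UMI was 64.9%, 48.7%, 26.5% and 22.9%, higher than the endothelial-marker-positive share in the controls only. After the same thinning it was higher in control 2 only (33.1%). Outside the arterial-marked cells, the endothelial-marker-positive level was 132, 86.7, 43.0 and 63.6 CPM. That level was below the RT level in both controls. In *Sox17*-cKO 1 the levels were close, from 4 UMIs against 11 in the RT. In *Sox17*-cKO 2 it was above the RT level, from 15 UMIs against 22.

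Most *Sox17* UMIs of the controls came from few cells. Arterial-marked cells held 29 of 33, 49 of 62, 6 of 10 and 3 of 18 *Sox17* UMIs. A single cell of control 2 had 31 UMIs, and 3 further control cells had 12 each. *Sox17* was not among the 14 arterial genes that marked these cells. Within arterial-marked cells the level was 837, 1330, 741 and 1068 CPM, from 4, 4, 1 and 1 cells, so the libraries overlapped. In all cells outside them it was 132, 86.7, 43.0 and 63.6 CPM, from 4, 13, 4 and 15 UMIs, with both *Sox17*-cKO libraries below both controls. Over the whole set, 17.9% of all genes tested were lower without overlap. These few UMIs came from 1 of 4, 8 of 21, 4 of 14 and 9 of 33 cells, shares that overlapped between genotypes. All 4 UMIs of control 1 were in a single cell. The fall in the summed level therefore went together with a smaller share of arterial-marked cells, which were 50%, 16%, 6.67% and 2.94% of the endothelial-marker-positive cells, and the part this share has in the result was not tested.

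**Figure D3:**
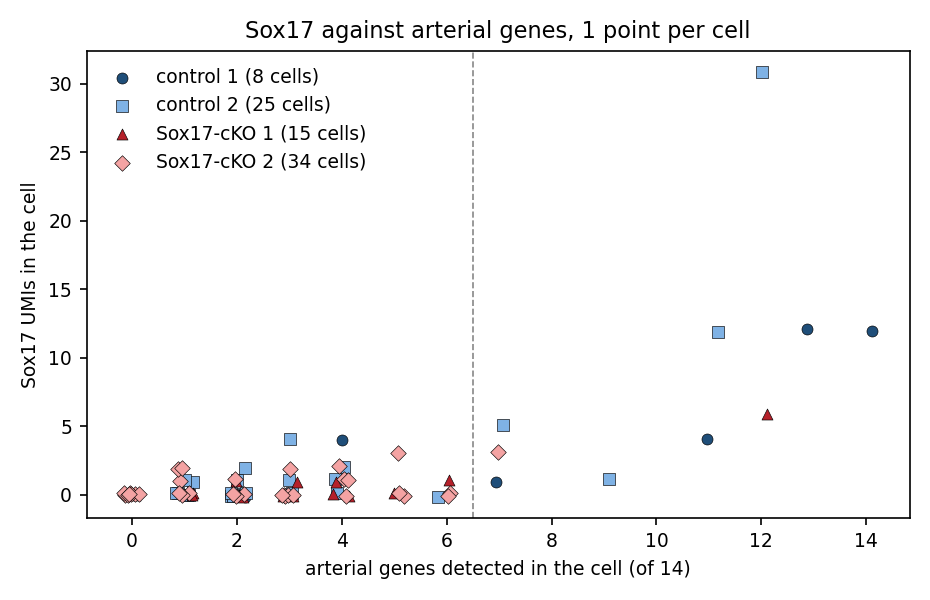
Number of arterial genes detected (x axis, of 14) against *Sox17* UMIs (y axis) for each of the 82 cells, by library, with points moved slightly at random so that they can be told apart. To the right of the dashed line, at 7 or more arterial genes, stand 8 control and 2 *Sox17*-cKO cells, and the cells with 12 or more *Sox17* UMIs all lie there.

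*Sox18* was tested as well, and *Sox7* was too low to be. *Sox18* (chr2:181669836-181671640, minus strand) had 23, 73, 54 and 89 UMIs, or 354, 391, 534 and 373 CPM, and the genotypes overlapped. Its log2 fold change was 0.30 (standard error 0.366, unadjusted p = 0.431, adjusted p = 0.9999 in edgeR). It was 1.01 when barcodes of 500 or more detected genes were taken with no upper limit, 0.04 without *Sox17*-cKO 1 and 0.51 without *Sox17*-cKO 2, and it did not pass the threshold in any of these. *Sox18* was also spread over more cells than *Sox17*, with 60 cells of 82 and 5.44% of its UMIs in the highest cell, against 32 cells and 25.2% for *Sox17*. *Sox7* (chr14:63943673-63950732, plus strand) had only 4, 7, 8 and 12 UMIs and was not tested, because it did not pass the filter on low counts.

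**Figure D4:**
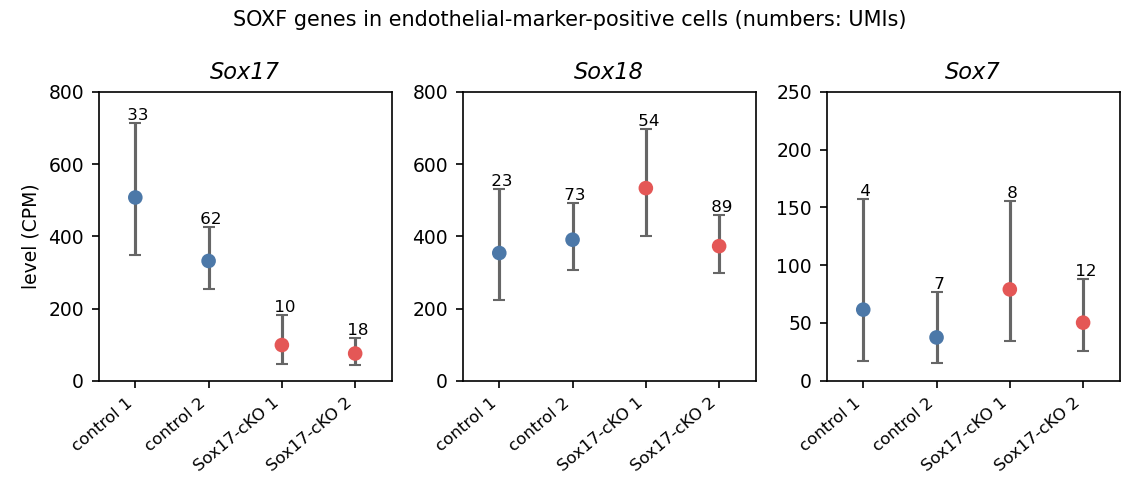
Level of *Sox17*, *Sox18* and *Sox7* (CPM) in the endothelial-marker-positive cells of each library, with UMI counts as numbers and exact 95% Poisson intervals, which cover counting error only. *Sox17* was at 508 and 332 CPM in controls and 98.8 and 75.4 CPM in *Sox17*-cKO, whereas *Sox18* overlapped between genotypes. The axis of *Sox7* is shorter than the other axes.

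Across all genes no difference between genotypes passed the threshold in the endothelial-marker-positive cells. Of 2807 genes tested, 0 were called by edgeR (0%), and DESeq2, which was run without the filter on low counts on 13324 genes, also called 0. At an unadjusted p below 0.05 there were 40 higher and 40 lower genes in edgeR, 2.85% of its 2807, and 55 in DESeq2. In data simulated at this depth, the edgeR step recovered 54.1% of 85 genes changed 4-fold and 4.44% of 90 genes changed 2-fold. The values below are therefore levels and counts, and none of the genes named had an adjusted p below 0.05 in this comparison.

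Summed over all endothelial-marker-positive cells, arterial genes leaned lower in *Sox17*-cKO. Of the 14, 8 could be tested, 7 of which had a negative log2 fold change, with a median of -1.12 against 0.03 for all genes. Without overlap, 5 of the 8 were lower and 0 were higher, against 17.9% and 12.1% of all genes. *Gja4* had 42, 42, 17 and 29 UMIs, or 646, 225, 168 and 122 CPM. *Efnb2*, the arterial ephrin, had 28, 43, 14 and 26 UMIs, or 431, 230, 138 and 109 CPM, and *Dll4*, the arterial Notch ligand, had 5, 24, 4 and 10 UMIs. Control 1 was the highest library for *Gja4* and *Efnb2*, and it was also the one in which 4 of the 8 cells were arterial-marked. Within each class the sum of the 14 genes overlapped between genotypes. It was 766, 486, 781 and 571 CPM in cells of no special class and 531, 1267, 862 and 2654 CPM in lymphatic-marked cells. In arterial-marked cells, which these genes chose, it was 5772, 6198, 6299 and 4630 CPM. Outside all arterial-marked cells *Gja4* was at 65.9, 66.7, 172 and 119 CPM, higher in both *Sox17*-cKO libraries. *Sema3g*, a semaphorin of arteries, had 20, 12, 0 and 0 UMIs and *Gja5* had 11, 6, 1 and 0, both too few to be tested. With lymphatic-marked cells left out, a choice made after the data were seen, the log2 fold change of *Gja4* went from -1.50 to -3.44, with an adjusted p of 0.723 in edgeR. It was -0.65 without control 1 and -0.30 when barcodes of 500 or more detected genes were taken with no upper limit.

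*Cxcl12* showed the widest gap among the ligand genes. It had 81, 75, 4 and 43 UMIs, or 1246, 401, 39.5 and 180 CPM, with both *Sox17*-cKO libraries below both controls (log2 fold change -2.67, standard error 0.725). Arterial-marked cells held 68 of 81, 63 of 75, 0 of 4 and 11 of 43 of these UMIs. Within them the *Cxcl12* level was 1963, 1710, 0 and 3917 CPM, from 4, 4, 1 and 1 cells. Outside them it was 428, 80.0, 43.0 and 136 CPM, so the genotypes overlapped in both parts. *Cxcl12* passed the threshold without the filter on low counts (-2.60), without control 2 (-3.30), without *Sox17*-cKO 1 (-2.07) and without *Sox17*-cKO 2 (-4.27), but not without control 1 (-1.71, adjusted p = 0.611 in edgeR), and its value was -0.69 when barcodes of 500 or more detected genes were taken with no upper limit. In the other retained cells its log2 fold change was -0.46 (standard error 0.949). Of 22 ligand genes, 19 had UMIs in the endothelial-marker-positive cells. *Kitl*, the KIT ligand, was even, with 231, 268, 316 and 277 CPM in 61 cells, and *Gdnf*, *Igf2* and *Rspo1* had 0 UMIs. *Igf1* had 1, 31, 7 and 180 UMIs, of which 152 of the 180 in *Sox17*-cKO 2 were in its 9 mixed cells.

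Notch pathway genes leaned lower in the same sums, but 3 of the 13 (*Dll4*, *Hey1*, *Jag1*) stand on the arterial list too. Of the 13, 6 were tested, with a median log2 fold change of -0.78, and 3 (*Dll4*, *Jag1* and *Jag2*) were lower without overlap, against 17.9% of all genes. *Dll4* and *Jag1* were already counted among the arterial genes, so *Jag2* alone was lower outside that list. *Jag2*, a Notch ligand, had 8, 16, 4 and 5 UMIs, or 123, 85.6, 39.5 and 20.9 CPM. *Dll4* and *Jag2* passed the filter on low counts through the control libraries only, so their lower level is a description. *Notch1* itself overlapped between genotypes (log2 fold change -0.20, standard error 0.464), and so did *Hes1* and *Rbpj* at -0.08 and 0.10.

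Transporters of endothelial barriers had a median log2 fold change of -0.39 over 7 tested genes of 16, and 4 of the 7 were lower without overlap, against 17.9% of all genes. *Abcb1a*, a drug efflux pump, had 15, 49, 7 and 35 UMIs, or 231, 262, 69.2 and 147 CPM (log2 fold change -1.06). Its value was -0.71 without the mixed cells, -1.83 without *Sox17*-cKO 2, and -1.34 (standard error 0.671) in the other retained cells. *Slc2a1*, the glucose transporter, had 5, 20, 0 and 12 UMIs, and *Mfsd2a*, a lipid transporter of tight barriers, had 2, 8, 0 and 0. *Slco1c1* and *Lrp8* had 0 UMIs. Of 11 basement membrane genes tested, 5 were lower without overlap and 0 higher, against 17.9% and 12.1% of all genes, with a median log2 fold change of -0.38. *Col18a1*, which encodes the source of endostatin, had 28, 52, 13 and 23 UMIs, or 431, 278, 128 and 96.4 CPM.

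Venous and capillary genes leaned the other way. All 6 venous genes tested had a positive log2 fold change, with a median of 0.56, and 2 were higher without overlap, where 12.1% of all genes tested were. *Nr2f2* had 9, 67, 54 and 114 UMIs, or 138, 359, 534 and 478 CPM. Mixed cells held 35 of its 114 UMIs in *Sox17*-cKO 2, and its level was higher in lymphatic-marked cells (657 CPM) and mixed cells (536 CPM) than in cells of no special class (380 CPM). Of 6 capillary genes tested, 5 had a positive value and 3 were higher without overlap, against the same 12.1%. *Fabp4*, a fatty acid carrier of small vessels, had 1, 27, 85 and 116 UMIs, or 15.4, 145, 840 and 486 CPM (log2 fold change 2.79, standard error 0.647). It was found in 13 cells only. A single cell held 108 of the 116 UMIs of *Sox17*-cKO 2, and another held 58 of the 85 of *Sox17*-cKO 1. Of the wider endothelial list, 19 genes were tested, with a median of -0.02, and 5 were lower (*Flt1*, *Esam*, *Mmrn2*, *Cd93* and *Podxl*) and 2 higher (*Eng* and *Clec14a*) without overlap, close to the 17.9% and 12.1% of all genes. *Clec14a*, an endothelial lectin, was at 231, 305, 662 and 557 CPM in 45 cells (log2 fold change 1.20, standard error 0.366).

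Part of the early response genes leaned higher in *Sox17*-cKO. Of 10 early response and heat shock genes, 7 were tested, with a median log2 fold change of 1.40, and 5 were higher without overlap, against 12.1% of all genes. *Ier2* and *Dusp1* overlapped between genotypes. *Fos* had 24, 183, 209 and 592 UMIs, or 369, 979, 2065 and 2480 CPM, and *Junb* had 13, 74, 95 and 295 UMIs, or 200, 396, 939 and 1236 CPM. The mixed cells of *Sox17*-cKO 2 held 363 of its 592 *Fos* UMIs. Without the mixed cells of all libraries, the log2 fold change of *Fos* went from 1.76 to 1.28 that of *Junb* from 1.86 to 1.62 and that of *Egr1* from 1.82 to 1.09. With at least 4 rule genes *Egr1* was at 0.95. In the other retained cells the list summed to 2794 and 6896 CPM in the controls and 2651 and 5382 CPM in the *Sox17*-cKO libraries, so that its higher level there followed the second library of each genotype. In lymphatic-marked cells it summed to 265, 634, 1124 and 607 CPM, and in arterial-marked cells to 750, 1033, 741 and 712 CPM. The cells of no special class were above both in each library, at 2910, 4556, 7714 and 5356 CPM, with 2 cells in control 1. Among them *Fos* (613, 1767, 3126 and 1607 CPM) and *Jun* (153, 745, 1480 and 684 CPM) overlapped between genotypes. *Junb* (383, 675, 1247 and 1092 CPM) and *Egr1* (230, 546, 1047 and 655 CPM) did not.

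The genes with the smallest unadjusted p whose libraries did not overlap were *Apoe*, *Junb*, *Fabp4*, *Nr4a1* and *Bgn* among the higher and *Sox17*, *St8sia6*, *Gpcpd1* and *Col18a1* among the lower, with the genes of the rule left aside. *Apoe*, a lipid carrier, had 12, 50, 128 and 164 UMIs, or 185, 268, 1265 and 687 CPM, and 100 of the 164 were in the mixed cells of *Sox17*-cKO 2. *Bgn*, the proteoglycan biglycan, had 14, 34, 45 and 277 UMIs, of which 87 of the 277 were in those cells. *St8sia6*, a sialyltransferase, had 9, 18, 1 and 2 UMIs, and 18 of its 30 UMIs were in arterial-marked cells. *Gpcpd1*, a phosphodiesterase of choline lipids, had 17, 32, 3 and 14 UMIs, or 262, 171, 29.6 and 58.7 CPM, spread over 31 cells. Without the mixed cells the log2 fold change of *Apoe* was 1.74 in place of 2.10 and that of *Bgn* 2.31 in place of 2.10. In cells of no special class *Apoe* was at 842, 467, 2128 and 451 CPM, with *Sox17*-cKO 2 below both controls. *Bgn* was at 230, 208, 648 and 1247 CPM in them, without overlap. Leaving out 1 library brought 6 of these genes past the threshold besides *Sox17*. They were *Apoe* and *Nr4a1* without *Sox17*-cKO 2 (2.43 and 2.90), *Junb*, *Bgn* and *St8sia6* without *Sox17*-cKO 1 (2.03, 2.62 and -3.57), and *Fabp4* without control 2 or without either *Sox17*-cKO library (5.39, 2.33 and 3.07). The same 6 genes passed without the filter on low counts. Without *Sox17*-cKO 2 *Bgn* was at 1.19, and without control 2 *Nr4a1* was at 3.85, and neither passed the threshold. *Gpcpd1* and *Col18a1* passed in none of their alternatives. When barcodes of 500 or more detected genes were taken with no upper limit, *Junb* was at 0.27, *Nr4a1* at 0.10, *St8sia6* at -0.84, *Gpcpd1* at -0.17 and *Col18a1* at -0.57, whereas *Apoe*, *Fabp4* and *Bgn* were at 2.02, 2.06 and 1.68.

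**Figure D5:**
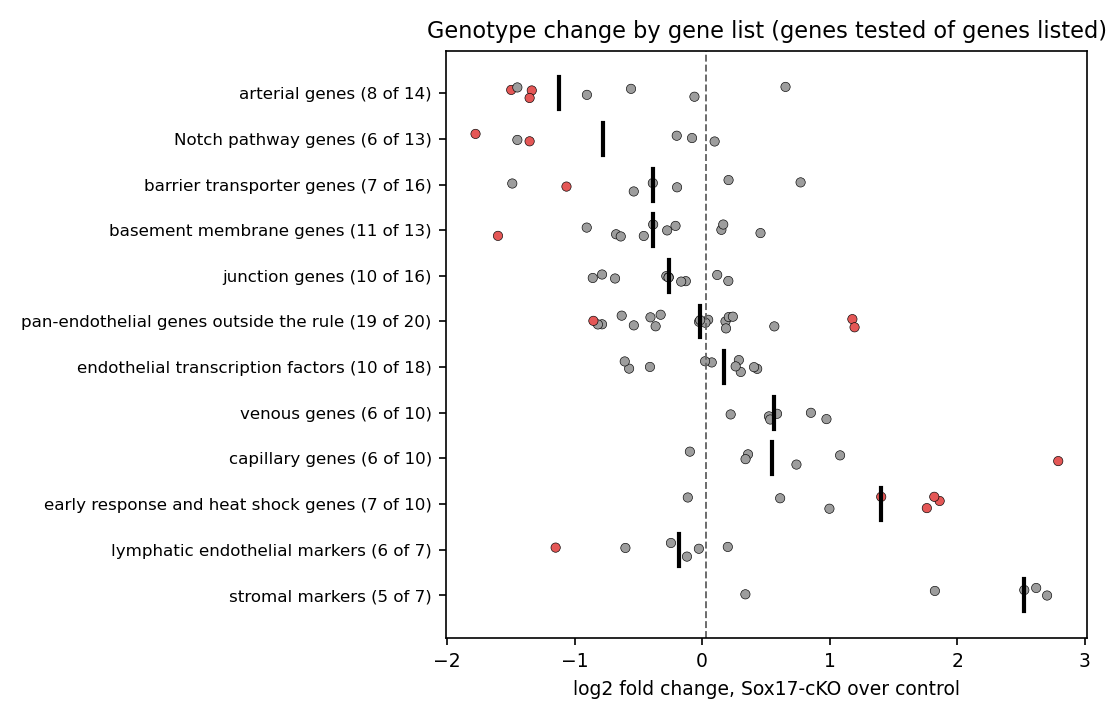
Log2 fold change of *Sox17*-cKO over control for each tested gene of 12 lists (points, red where the unadjusted p is below 0.05), with the median of each list (bar) and of all genes tested (dashed line). Arterial genes had a median of -1.12, venous genes 0.56 and early response genes 1.40, and no gene had an adjusted p below 0.05.

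Dividing cells were few. At least 7 of 12 proliferation genes were seen in 0, 1, 3 and 2 cells, of which 2 were lymphatic-marked and 4 of no special class. *Top2a*, a topoisomerase of dividing cells, had 1, 17, 37 and 21 UMIs.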

How the data were processed

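Single cells of 4 libraries (2 control, 2 *Sox17*-cKO, 3 pooled pups each) were analysed. The authors aligned reads to mm10 with Cell Ranger and deposited whole UMI counts per gene and barcode, without normalization. Cells with 1000 to 4500 detected genes and at least 3 of the 7 rule genes were taken. No limit was set on mitochondrial UMIs, unlike in the study, and doublets were not called. Counts were summed per library and compared with edgeR 4.0.16 in R 4.3.3 (TMM, filterByExpr, quasi-likelihood F test, Benjamini-Hochberg, two-sided, threshold 0.05); DESeq2 1.42.0 was an alternative. Levels are CPM without TMM. Named genes were those of the rule and of the lists, up to 5 per direction with the smallest p between genotypes (*Cldn5*, a rule gene, is described only) and the 20 most enriched. Members and lists were chosen with earlier results of these data known. The p-values measure the spread between 2 library pools per genotype. The edgeR step was tested on simulated data. Coordinates are from GENCODE vM21. Deposited tables that pool libraries were not used.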

Additional observations from a re-analysis of the deposited data

How the results depend on the processing

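The number of genes past the threshold was 0 in edgeR's main comparison and was 34 without a filter on low counts and 3 with barcodes of 500 or more detected genes and no upper limit. Leaving out 1 library gave between 5 and 60 genes (6 without control 1, 5 without control 2, 60 without *Sox17*-cKO 1, 17 without *Sox17*-cKO 2), where the lone library of an arm is assumed to vary like the others. It stayed at 0 with DESeq2, with at least 4 rule genes, below 10% mitochondrial UMIs, without mixed cells and without lymphatic-marked cells, the last chosen after the data were seen. The causes were not tested. *Sox17* was negative in all 12 alternatives, from -2.50 to -1.61, and past the threshold in 2 (-2.19 without the filter and -2.37 without *Sox17*-cKO 1, in a leave-one-out range of -2.50 to -1.94). The log2 ratio of *Cldn5*, a gene of the rule given as a description, was -1.22, and 0.11 with barcodes of 500 or more genes. With the replicate number as a block, 0 genes passed, 137 had an unadjusted p below 0.05 in place of 80, and *Sox17* was at -2.17 (adjusted p = 0.193, edgeR). The numbers name no shared animal, and deviations of same-numbered libraries correlated at r = 0.19 over 2807 genes. The difference in the share of cells was 0.129, but was 0.0409 with at least 4 rule genes, 0.0587 without mixed cells, -0.0472 without control 1, -0.0414 without *Sox17*-cKO 2 and -0.0103 with the wider limits. Every alternative moved it by less than 1 SD between replicates (0.249 in controls, 0.241 in *Sox17*-cKO). That SD is larger than the difference itself, so this cannot show that the difference is stable. Depth limits most genes: 1 UMI was worth up to 15.4 CPM.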

Other observations

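Barcodes with at least 3 rule genes also lay outside the limits on detected genes. Above 4500 genes the libraries held 12, 43, 19 and 28 of them, and below 1000 genes 0, 4, 2 and 2. Cells with at least 3 lymphatic markers that did not meet the endothelial rule numbered 0, 1, 2 and 1.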
